A study of Homo sapiens with 6 samples.

Results

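The DNA glycosylases of base excision repair were examined as 10 genes (NEIL1, NEIL2, NEIL3, OGG1, NTHL1, MUTYH, UNG, SMUG1, TDG and MPG) among the 26485 gene symbols counted by RNA-seq. They were taken by gene symbol, and all 10 were found and had enough reads to be tested. NEIL2 was known beforehand to be lower in these data, so its change and interval are a description, and no p is given for it. Where NEIL2 is counted among genes past a cut-off, its choice fixed that count. The other 9 were chosen by function, and their tests come from a fit over all genes.

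RNA-seq was performed in A549 cells, a human lung carcinoma line, carrying lentiviral dCas9-KRAB and rat Nkx2-1. dCas9-KRAB is a Cas9 without nuclease activity fused to a repressor domain, and the cells holding it were selected with puromycin. The Nkx2-1 cells were sorted by GFP. Cells were transfected with a synthetic guide to the first SFTPB intron in 3 libraries (sgRNA #2) or with a non-targeted guide in 3 libraries (sgRNA control). Every library therefore came from cells with both transgenes, and no library of untransfected cells was compared here. The study describes the RNA-seq triplicates as biological replicates. Within a group no pair of libraries agreed within sampling noise (a chi-square of 2.73 to 3.61 for each degree of freedom), so each was counted as 1 sample, although this spread cannot show that the cultures were separate.

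Base excision repair removes single damaged or misplaced bases from DNA. A glycosylase recognizes the base and cuts it from the sugar, and an endonuclease, a polymerase and a ligase then restore the strand. The glycosylases differ in the bases they take: the NEIL enzymes, OGG1 and NTHL1 remove oxidized bases, MUTYH removes adenine paired with oxidized guanine, UNG and SMUG1 remove uracil, TDG removes thymine mispaired with guanine and oxidized forms of methylcytosine, and MPG removes alkylated purines.

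The target of sgRNA #2 and partial matches to it near NTHL1 and MUTYH are shown because the 2 groups differ only in the sgRNA delivered. Capitals mark the bases next to the PAM that match sgRNA #2 without a break, and the last 3 bases are the PAM. The target lies at chr2:85668529-85668551 on the minus strand of GRCh38, with the 10 bases next to the PAM in capitals. The NTHL1 match lies at chr16:2044867-2044889 and the MUTYH match at chr1:45339663-45339685, both on the plus strand.
sgRNA #2 target in SFTPB: gggatgggagGGGAACACCCagg
match near NTHL1: cccccgccctcgacACACCCtgg
match near MUTYH: aatcggtcgctcttACACCCtgg

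The search covered 1000 bp on either side of every annotated transcription start site, on both strands, for the last 10 guide bases (GGGAACACCC) followed by NGG. NEIL2 held such a match, and it was the 1 glycosylase gene of 10 that did. The same was found for 28 of 13076 tested genes with an annotation (0.214%). The NEIL2 match lay between 598 and 669 bp upstream of 4 of the 5 annotated start sites, 669 bp from that of the canonical transcript, and differed from the guide at 9 of its 20 bases. The NTHL1 match covered 6 bases and lay 52 bp upstream of its nearest start site, with 12 mismatches. It is inside the gene, within 1000 bp of 2 of the 13 annotated start sites and not of the canonical one. The MUTYH match covered 6 bases, 261 bp downstream of its nearest start site, with 13 mismatches. A match of at least 6 bases was found for 24.1% of tested genes, and the other 7 glycosylase genes had none of that length. These are matches of letters only, and binding of dCas9-KRAB at them was not measured here.

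NEIL2 was lower in all 3 sgRNA #2 libraries than in any sgRNA control library. NEIL2 encodes a glycosylase that removes oxidized pyrimidines and also cuts the DNA strand. The gene lies on the plus strand of chromosome 8 (11769639 to 11787345, GRCh38), has 7 annotated transcripts and overlaps no other annotated gene. It was counted 326, 393 and 372 times in the control and 49, 36 and 51 times with sgRNA #2. In normalized CPM (counts scaled to the library size), the values were 51.9, 55.7 and 48.9 in the control and 6.97, 5.41 and 8.50 with sgRNA #2. The groups were far apart, and the highest sgRNA #2 library held 16.3% of the control mean.

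The mean NEIL2 level was 52.2 ± 3.40 CPM (SD, n = 3) in the control and 6.96 ± 1.54 CPM (SD, n = 3) with sgRNA #2. This is a log2 fold change of -2.91 (SE 0.135, 95% interval -3.20 to -2.63), so that 13.3% of the control level remained. NEIL2 is counted as past both cut-offs used for all genes, an absolute log2 fold change of at least 1 and an adjusted p under 0.05. In the same comparison 0.719% of all genes tested met both and 0.689% did so as lower, and nothing is read from these shares for NEIL2 because this change led to its choice. The remaining signal was well above the floor of 3 counts, which corresponded to 0.496 CPM in the shallowest library, a floor that covers counting error only. Fewer cells with NEIL2 transcripts and fewer transcripts per cell cannot be told apart in bulk RNA.

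**Figure D1:**
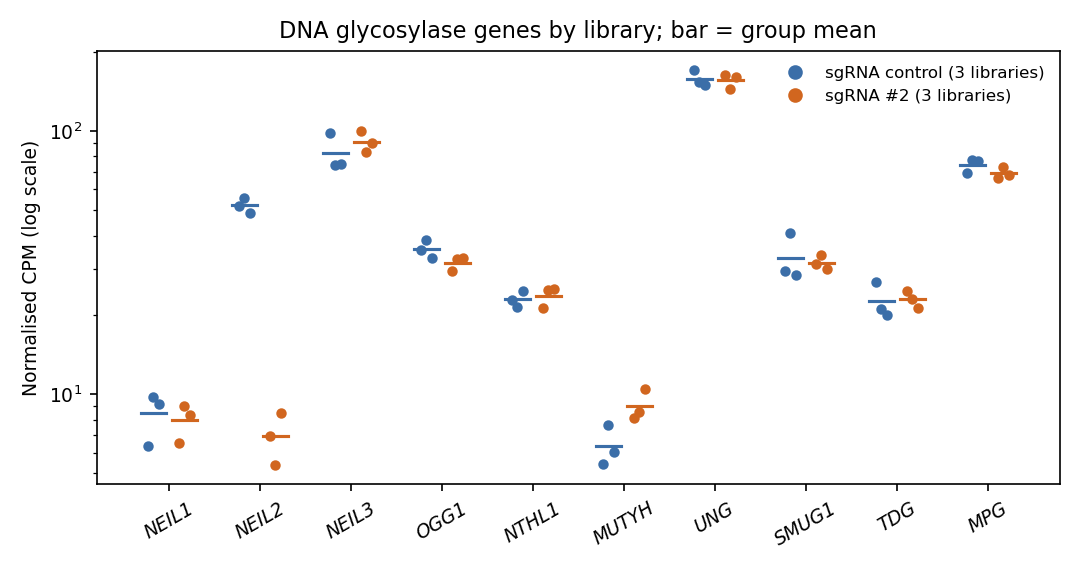
Normalized CPM (log axis) of the 10 glycosylase genes, with 1 point for each library and a bar at the mean of the 3 libraries in each group. The NEIL2 points of sgRNA #2 (5.41 to 8.50 CPM) lie far below those of the sgRNA control (48.9 to 55.7 CPM). For UNG, NEIL3 and MPG the points of both groups overlap.

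None of the other 9 glycosylase genes passed the adjusted p (edgeR's quasi-likelihood test, Benjamini-Hochberg over all genes), against 2.69% of all tested genes. Their log2 fold changes had a median of -0.01, beside 0.00 over all 13356 tested genes. The 95% intervals of all 9 lay within a 2-fold change in either direction, from -0.52 at the lowest to 0.90 at the highest, as did those of 12438 of the tested genes. At an unadjusted p under 0.05, MUTYH alone of the 9 was different, and it was higher, where 11.1% of all tested genes were different at this level. The groups did not overlap in 2 of the 9, OGG1 (lower) and MUTYH (higher), where 15.6% of all tested genes did not overlap.

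The other NEIL genes had values like the control with sgRNA #2. NEIL1, which like NEIL2 removes oxidized bases and cuts the strand, was counted 40, 69 and 70 times in the control and 46, 60 and 50 times with sgRNA #2. The groups overlapped, at 8.45 ± 1.82 and 7.96 ± 1.27 CPM (SD, n = 3 each), and the log2 fold change was -0.10 (SE 0.198, 95% interval -0.52 to 0.32). With 70 counts at most, NEIL1 was among the least precise of the members. It lies on chromosome 15 (75346955 to 75357115), and its exons overlap those of 3 genes on the opposite strand, MAN2C1 among them. Reads at shared positions may have been left out as ambiguous or counted for either gene.

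NEIL3, a glycosylase linked to dividing cells and to single-stranded DNA, was counted 618, 524 and 568 times in the control and 703, 554 and 540 times with sgRNA #2. The groups overlapped, with 82.5 ± 13.8 CPM in the control and 91.1 ± 8.45 CPM with sgRNA #2 (SD, n = 3 each). The log2 fold change was 0.15 (SE 0.101, 95% interval -0.06 to 0.36, adjusted p = 0.667 by edgeR). Of 12 proliferation genes listed beside it, MKI67, TOP2A and the MCM helicase genes among them, 0 passed either rule, and their log2 fold changes ran from -0.11 to 0.11. Over all tested genes, 2.69% passed the adjusted p. The part of proliferation in the NEIL3 value was not tested.

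OGG1, the main glycosylase for oxidized guanine, was counted 222, 271 and 250 times in the control and 206, 217 and 197 times with sgRNA #2. The lowest control library (32.9 CPM) and the highest sgRNA #2 library (32.8 CPM) were almost equal, so the groups were separate by a very small margin. The log2 fold change was -0.17 (SE 0.10, 95% interval -0.38 to 0.04), and the adjusted p was 0.584 by edgeR. OGG1 lies on chromosome 3 (9749944 to 9788219) and shares exon positions with CAMK1 and TADA3 on the opposite strand.

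NTHL1, which removes oxidized pyrimidines as NEIL2 does, was counted 143, 151 and 187 times in the control and 150, 165 and 150 times with sgRNA #2. The groups overlapped, at 22.9 ± 1.60 and 23.7 ± 2.05 CPM (SD, n = 3 each). A log2 fold change of 0.04 (SE 0.114) had a 95% interval of -0.20 to 0.28. NTHL1 lies on the minus strand of chromosome 16 (2039815 to 2047866) and, like NEIL2, overlaps no other annotated gene.

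MUTYH had the highest log2 fold change of the 10. It was counted 34, 54 and 46 times in the control and 57, 57 and 63 times with sgRNA #2, or 5.42, 7.65 and 6.05 CPM against 8.11, 8.56 and 10.5 CPM. All 3 sgRNA #2 libraries were thus above all 3 control libraries. The mean was 6.37 ± 1.15 CPM in the control and 9.05 ± 1.27 CPM with sgRNA #2 (SD, n = 3 each), with a log2 fold change of 0.49 (SE 0.192, 95% interval 0.09 to 0.90). It did not pass (adjusted p = 0.281 by edgeR), but a fit with replicate as a block gave a log2 fold change of 0.50 and an adjusted p of 0.0426. In that blocked edgeR fit 10.0% of all tested genes passed the adjusted p. By DESeq2 the adjusted p was 0.662. MUTYH had the lowest counts of the members in the control. On chromosome 1 (45329163 to 45340893) its exons overlap those of TOE1 on the opposite strand and of a further gene on its own strand. Reads at these shared positions may have been left out as ambiguous or counted for either gene, which cannot be told from the counts.

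Among the uracil and thymine glycosylases, UNG had the highest counts of the 10 genes. UNG, which removes uracil built in during replication or formed by loss of an amino group from cytosine, was counted 1065, 1078 and 1140 times in the control and 1151, 957 and 958 times with sgRNA #2. At 157.4 ± 10.7 and 155.7 ± 10.6 CPM (SD, n = 3 each) the groups overlapped. The log2 fold change of -0.01 (SE 0.0722) had the narrowest 95% interval of the members, -0.17 to 0.14.

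SMUG1, a second uracil glycosylase, was counted 184, 288 and 216 times in the control and 219, 224 and 179 times with sgRNA #2. The control libraries were spread around those of sgRNA #2, and the log2 fold change was -0.06 (SE 0.127, 95% interval -0.33 to 0.21). TDG, which also acts in the removal of methylcytosine after its oxidation, was counted 167, 149 and 152 times in the control and 173, 153 and 128 times with sgRNA #2. The groups overlapped here as well, and the log2 fold change was 0.04 (SE 0.125, 95% interval -0.23 to 0.30). All 3 genes lie on chromosome 12 but far apart, UNG at 109097597, SMUG1 at 54121277 and TDG at 103965822 (start positions). UNG overlaps ACACB on its own strand, but not exon to exon, while exons of SMUG1 and TDG overlap those of noncoding RNA genes.

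MPG, the glycosylase for alkylated purines, was counted 433, 547 and 583 times in the control and 467, 486 and 409 times with sgRNA #2. The means were 74.4 ± 4.71 and 69.2 ± 3.41 CPM (SD, n = 3 each), and the groups overlapped. The log2 fold change was -0.11 (SE 0.0770, 95% interval -0.27 to 0.06, adjusted p = 0.701 by edgeR). MPG lies on chromosome 16 (77007 to 85851), where an exon overlaps NPRL3 on the opposite strand.

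**Figure D2:**
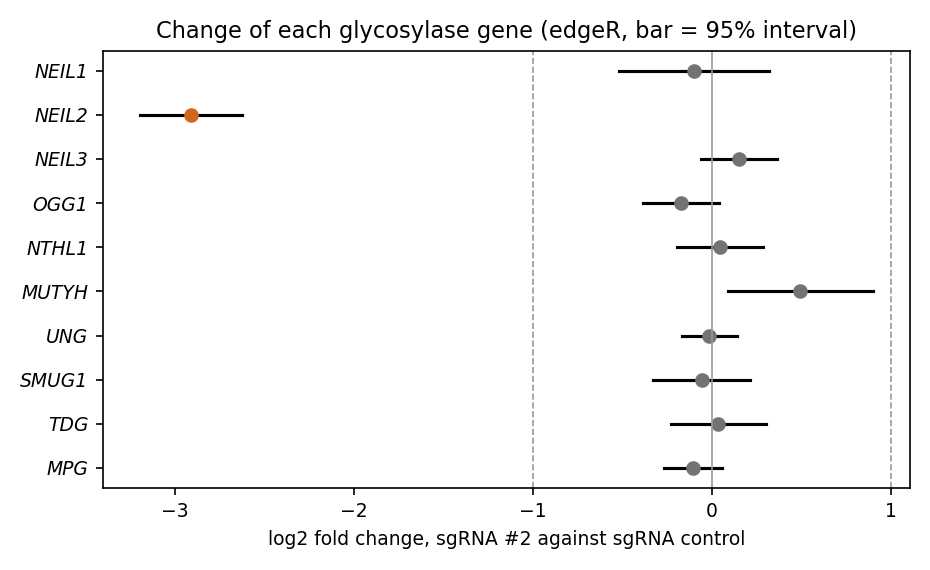
Log2 fold change (sgRNA #2 against sgRNA control, 3 libraries each) of each glycosylase gene with its 95% interval from edgeR, with NEIL2 in orange and dashed lines at a 2-fold change. NEIL2 lies at -2.91, and the intervals of the other 9 stay between the dashed lines, with MUTYH (0.09 to 0.90) the 1 interval without 0.

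The members were also compared with each other as CPM per kb of exon, since longer genes collect more reads. In the sgRNA control, MPG was highest (49.7 ± 3.15 CPM per kb, SD, n = 3), followed by UNG (29.9 ± 2.02), NEIL3 (28.3 ± 4.75), NEIL2 (15.5 ± 1.01) and NTHL1 (9.43 ± 0.658). SMUG1 (5.45 ± 1.15), TDG (4.62 ± 0.724), OGG1 (4.07 ± 0.317), NEIL1 (1.22 ± 0.263) and MUTYH (1.10 ± 0.199) were lower. In this order the library values overlapped between UNG and NEIL3, between SMUG1 and TDG, between TDG and OGG1, and between NEIL1 and MUTYH, so these neighbours cannot be ordered. NEIL2 overlapped neither neighbour and stood in place 4 of 10. This order depends on the length used: divided by the longest transcript, NEIL2 was at 19.3 CPM per kb and in place 5, below NTHL1 at 21.5. NEIL1 (2.28) and MUTYH (2.32) changed places with that length. Exons of MPG, SMUG1, TDG, OGG1, NEIL1 and MUTYH overlap those of other genes, and ambiguous reads were left out. Their levels may therefore be too low, which was not tested.

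With sgRNA #2, NEIL2 stood in place 8 of 10, at 2.07 ± 0.459 CPM per kb (SD, n = 3). It lay below OGG1 without overlap and overlapped MUTYH (1.56 ± 0.218 CPM per kb). Divided by the longest transcript, NEIL2 was in place 9, at 2.58 CPM per kb against 3.30 for MUTYH. The levels ran from MPG at 46.2 to NEIL1 at 1.15 CPM per kb, and MUTYH, which overlapped NEIL1 in the control, lay above it without overlap. The ratio of the NEIL2 level to the OGG1 level was 3.81 ± 0.0491 in the control and 0.573 ± 0.127 with sgRNA #2 (SD, n = 3 each). NEIL2 therefore stood above OGG1 in every control library and below it in every sgRNA #2 library.

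Of the summed level of all 10 genes, NEIL2 made up 10.1, 11.04 and 10.0% in the control and 1.52, 1.21 and 1.86% with sgRNA #2. This is a mean share of 10.4% ± 0.571 in the control and 1.53% ± 0.328 with sgRNA #2 (SD, n = 3 each). The summed level of the other 9 was 133.7 ± 3.66 CPM per kb in the control and 133.0 ± 1.43 with sgRNA #2, with overlapping groups. The sum of all 10 was 149.2 ± 4.12 against 135.1 ± 1.71 CPM per kb. These sums follow from the values above and are given without a test.

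**Figure D3:**
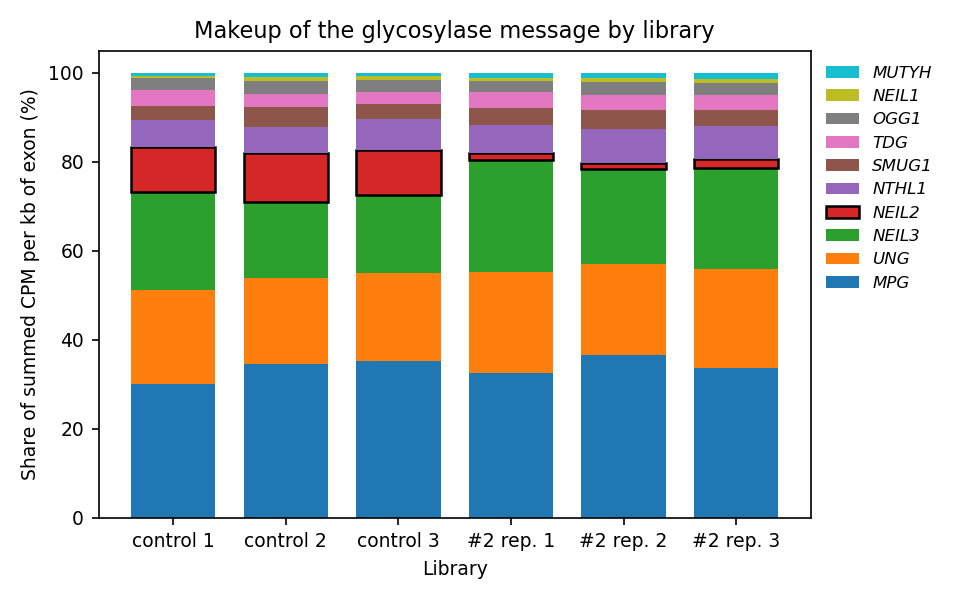
Share (%) of each glycosylase gene in the summed CPM per kb of exon of all 10, in stacked bars for the 6 libraries, with NEIL2 outlined in black. NEIL2 takes 10.0 to 11.04% of the control bars and 1.21 to 1.86% of the sgRNA #2 bars, while MPG is the largest share in each bar.

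Library spread also differed between members. The coefficient of variation of NEIL2 was 6.51% in the control and 22.2% with sgRNA #2, where it rested on 36 to 51 counts. That of NEIL1 was 21.6% in the control and 16.0% with sgRNA #2, and that of MUTYH 18.1 and 14.0%. MPG, with 409 to 583 counts in a library, varied by 6.33% in the control and 4.92% with sgRNA #2. SMUG1 varied by 21.1% in the control, mainly through control replicate 2 (40.8 CPM against 29.3 and 28.4).

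The next steps of base excision repair were examined through 29 further genes, all of which were tested: MBD4, another glycosylase, 7 genes of abasic site and end processing, 13 polymerase and clamp genes, 4 genes of strand break sensing and scaffold, 2 ligases and 2 genes that clean the nucleotide pool. None passed either rule, where 2.69% of all tested genes passed the adjusted p. An unadjusted p under 0.05 was found for 1, against 11.1% of all tested genes. Their median log2 fold change was -0.03 and their range -0.24 to 0.10, and all 29 intervals lay within a 2-fold change. MBD4, which removes thymine and uracil opposite guanine, was at 66.5 ± 3.38 CPM in the control and 63.6 ± 3.07 with sgRNA #2 (SD, n = 3 each).

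The gene with an unadjusted p under 0.05 was APEX1, the main endonuclease that cuts the abasic sites glycosylases leave. It was counted 2141, 2454 and 2774 times in the control and 2046, 1911 and 1892 times with sgRNA #2. After normalization the groups did not overlap, with 351.1 ± 12.2 CPM in the control and 297.7 ± 15.2 CPM with sgRNA #2 (SD, n = 3 each). APEX1 thus had a log2 fold change of -0.24 (SE 0.0640, 95% interval -0.37 to -0.10) and an adjusted p of 0.0574 by edgeR. With the replicate block the adjusted p was 2.47e-06, and by DESeq2 it was 0.0413. The change was small beside that of NEIL2 and lay within a 2-fold change over its whole interval.

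Downstream of APEX1, 5 genes are given as examples. POLB, the polymerase that fills the gap of a single base, had a log2 fold change of 0.10 (SE 0.182), and XRCC1, the scaffold of the repair complex, one of -0.14 (SE 0.127). PARP1, which senses the strand break, had -0.05 (SE 0.0742). The ligases LIG3 and LIG1 had -0.03 (SE 0.0708) and -0.15 (SE 0.112). None of these 5 passed the adjusted p in edgeR.

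The TET enzymes, which oxidize methylcytosine and so make the bases TDG removes, were counted with the same rules, as were other repair pathways. Of 3 TET genes, 12 genes of nucleotide excision repair and 8 of mismatch repair, none passed either rule. The adjusted p was passed by 2.69% of all tested genes. The median log2 fold change was 0.06 for nucleotide excision repair and 0.02 for mismatch repair. TET3 had a log2 fold change of 0.17 (SE 0.0807) with an adjusted p of 0.448 by edgeR, which was 0.0362 with the replicate block. Over all 52 repair genes beside the members, the range was -0.24 to 0.27, and the groups did not overlap in 6, against the 15.6% of all tested genes given above.

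**Figure D4:**
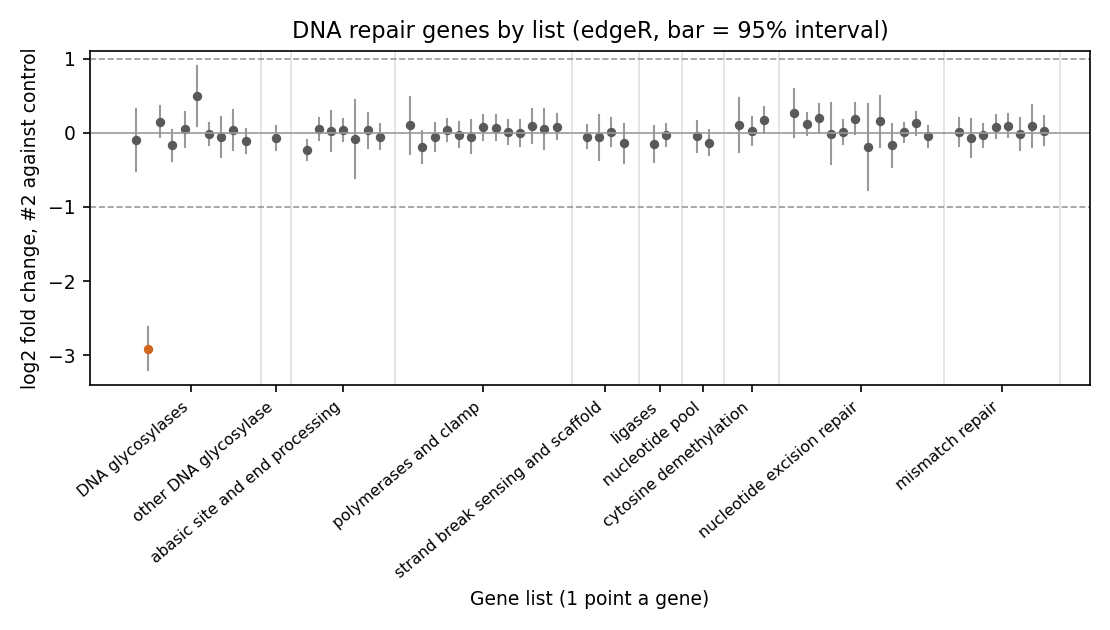
Log2 fold change (sgRNA #2 against sgRNA control) and 95% interval of the 10 glycosylases and of 52 other repair genes, by list, with NEIL2 in orange and dashed lines at a 2-fold change. NEIL2 at -2.91 lies apart from every other gene drawn, which run from -0.24 (APEX1) to 0.49 (MUTYH).

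The genes around NEIL2 were then compared. Of 32 other annotated symbols with a start within 1 Mb of that of NEIL2, 7 were tested, and 1 passed both cut-offs and 2 the adjusted p. Among all tested genes, 0.719% passed both and 2.69% the adjusted p. FDFT1, which encodes squalene synthase of the cholesterol pathway, starts 25934 bp from NEIL2 on the same strand. It was counted 1306, 1316 and 1653 times in the control and 226, 232 and 237 times with sgRNA #2. The log2 fold change of FDFT1 was -2.53 (SE 0.0870), and it is the 1 neighbour past both cut-offs. It was known beforehand to be lower, as NEIL2 was, so that count was fixed and no p is given for FDFT1.

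FDFT1 also held a 10-base match to sgRNA #2, with 6 mismatches. This match lay 37 bp upstream of the nearest FDFT1 start site and 317 bp downstream of the canonical one. The NEIL2 count was 0.2496, 0.299 and 0.225 of the FDFT1 count in the control and 0.217, 0.155 and 0.215 of it with sgRNA #2. These ratios were lower with sgRNA #2 and the groups did not overlap, although by a small margin. The part of the FDFT1 match in the NEIL2 value was not tested.

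Among the other 6 neighbours, 1 passed the adjusted p. FAM167A, whose start is at -293731 bp from that of NEIL2, fell by 0.41 on the log2 scale (SE 0.0991, adjusted p = 0.0317 by edgeR), from 287, 327 and 300 counts to 216, 236 and 197. GATA4, a transcription factor of endoderm and heart that lies between FAM167A and NEIL2, had a log2 fold change of 0.13 (SE 0.166), and CTSB, a lysosomal protease beyond FDFT1, one of -0.09 (SE 0.0739). MTMR9, PINX1 and LONRF1 had values of 0.16, 0.00 and 0.02. GATA4 and CTSB, the nearest tested genes on either side of NEIL2 and FDFT1, did not pass either rule.

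**Figure D5:**
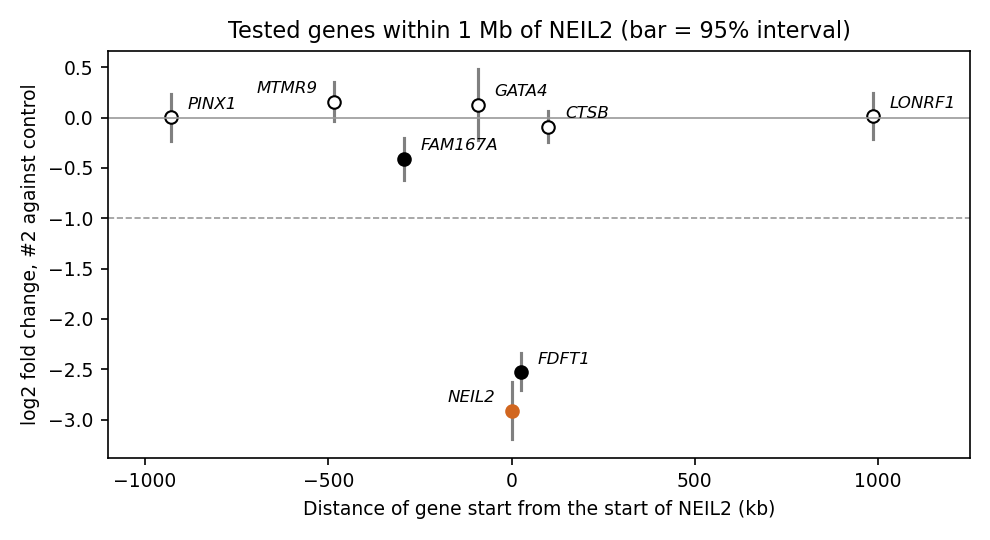
Log2 fold change and 95% interval of the 8 tested genes within 1 Mb of the start of NEIL2, by distance of their start in kb, with NEIL2 in orange, genes past the adjusted p filled and the others open. NEIL2 (-2.91) and FDFT1 (-2.53) lie far below a 2-fold decrease (dashed line), FAM167A lies at -0.41, and the other 5 lie between -0.09 and 0.16.

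SFTPB, the target of sgRNA #2 and the gene of a surfactant protein, was counted 2683, 2877 and 3155 times in the control and 40, 42 and 49 times with sgRNA #2. Its log2 fold change was -5.96 (SE 0.101), further below 0 than that of NEIL2. The libraries held 6047554 to 7584611 reads on genes. The epithelial markers EPCAM, KRT8, KRT18 and CDH1 were present in every library, and KRT19 was counted 0 to 4 times and was not tested. Of the 4 tested, 1, CDH1, fell by 0.34 on the log2 scale (adjusted p = 0.00728 by edgeR), where 2.69% of all tested genes passed. KRT8 had a log2 fold change of -0.13 with an adjusted p of 0.684 by edgeR, which was 0.0235 with the replicate block. Of the markers of other cells, CD3E, PTPRC, CDH5 and DCN were at 0 in every library, and COL3A1 and PECAM1 were counted at most 3 times. COL1A1 was counted 36 to 58 times and CD68, a lysosomal protein gene, 402 to 480 times, without a difference that passed.

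By the Pearson correlation of log2 CPM over the 6 libraries, the genes with the pattern most like NEIL2 were HNF4A (r = 0.998), C10orf35 (0.998), MYO9B (0.997), RXRA (0.997) and KREMEN1 (0.996). HNF4A and RXRA encode nuclear receptors, and KREMEN1 a receptor of the Wnt pathway. Their log2 fold changes were -1.06, -0.96, -0.31, -0.59 and -0.92. HNF4A was the 1 of these 5 past both cut-offs, where 0.719% of all tested genes passed both. The 5 were picked for a pattern that splits the groups as NEIL2 does, so nothing is read from this count. SFTPB (r = 0.994) stood in place 14 and FDFT1 (0.991) in place 25. Among the glycosylases the correlation with NEIL2 ran from -0.76 (MUTYH) to 0.73 (OGG1). All 6 points share the split into 2 groups, and the values are a description.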

How the data were processed

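RNA-seq was analysed in 6 libraries of A549 cells, 3 with sgRNA #2 and 3 with the sgRNA control, grouped by the sample labels. The authors deposited raw counts of reads per gene symbol, without normalization. The submitters' processing notes name Trim Galore, FastQC, Bowtie2 2.3.3.1, SAMtools, Picard, HTSeq and hg38, and the annotation and strand setting are not given in the sources used here, so reads of overlapping genes on opposite strands could not be told apart. Reads outside genes were 19.7 to 21.1% and ambiguous reads 2.61 to 2.75% of all reads tallied for a library, on genes or not. Both were left out.

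A gene needed at least 10 counts in 3 or more libraries, which left 13356, and these were tested with edgeR 4.0.16 in R 4.3.3 (TMM, quasi-likelihood test, Benjamini-Hochberg over all of them). Genes passed at an absolute log2 fold change of at least 1 and an adjusted p under 0.05. Rose and fell are written only of genes past the adjusted p. The standard error is the log2 fold change divided by the square root of F. The code was tested on simulated data. Levels per kb used the union of exons in GENCODE release 44 on GRCh38, to which 24522 of the 26485 symbols were matched, 1361 of them through RefSeq synonyms. Matches to sgRNA #2 were searched in the GRCh38 sequence with Python 3.11.15, and the guide was taken from the study's supplementary files.

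The members and lists were chosen with earlier results of these data known. The genes named are the members, SFTPB, tested genes within 1 Mb of NEIL2, the 5 genes most correlated with NEIL2, and list genes past a cut-off or serving as examples. APEX1, TET3 and the genes of the later repair steps were named as examples after their values were seen. The same holds for the values given for KRT8, MDM2 and BTG2. The labels give both groups replicates 1 to 3, and across genes same-numbered libraries deviated together from their group means (correlations 0.269, 0.287 and 0.291), so the libraries may be paired. The main test left this pairing out, and a fit with replicate as a block was run as an alternative. Standard errors, intervals and adjusted p-values are from the unpaired fit unless another fit is named. With the block, and without a count filter, edgeR estimated infinite prior degrees of freedom, against 13.0 otherwise, so those p-values rest on the trended dispersion alone. Other alternatives were DESeq2 1.42.0, glmTreat, RLE size factors, total counts, other count filters, leaving out each library, other gene lengths, and other match lengths and windows.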

Additional observations from a re-analysis of the deposited data

How the results depend on the processing

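The log2 fold change of NEIL2 was -3.07 to -2.76 over the alternatives run. NEIL2 was the 1 glycosylase gene counted past both cut-offs in each of them, a count that its choice for this change fixed and that is no sign of stability. With the replicate block, 2 glycosylase genes passed the adjusted p against 1 without it, as MUTYH (0.50) joined NEIL2, and 2 other repair genes did (APEX1 and TET3) against 0. In that blocked fit 10.0% of all tested genes passed it. The block changed no other call among the glycosylase and repair genes. APEX1 also passed with DESeq2 and without a count filter (1 repair gene each), and leaving out 1 library gave 0 to 1 such genes, APEX1 passing without sgRNA #2 replicate 3 (adjusted p = 0.0474 by edgeR). The cause was not tested.

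Of 130 log2 fold changes of members under the alternatives, 120 kept their direction and side of the threshold. These include the values of NEIL2, which its choice fixed, and those of glmTreat, which has the same log2 fold changes as the main fit. The 120 is therefore no measure of stability. A further 9 that were close to 0 changed sign when 1 library was left out, over ranges of -0.26 to 0.033 (NEIL1), -0.0037 to 0.12 (NTHL1), -0.050 to 0.040 (UNG), -0.16 to 0.13 (SMUG1) and -0.047 to 0.16 (TDG). The difference in the NEIL2 share of the summed level (sgRNA #2 minus control) was -8.86 percentage points, -7.38 with the longest transcript as the length and -9.03 to -8.53 without 1 library. No glycosylase gene held a match of 11 or 12 bases, or one of 10 bases within 500 bp, and 0 is the value under each of these.

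Over all genes, 96 passed both cut-offs, 27 in glmTreat, which tests for a change above 2-fold, and 63 with at least 10 counts in every library. The adjusted p alone gave 359 genes, 1339 with the replicate block, 583 without a count filter, 224 without sgRNA #2 replicate 1 and 233 without sgRNA control replicate 2. The counts of NEIL1 and MUTYH, 70 at most, limit their intervals, which leave changes of up to 0.52 and 0.90 on the log2 scale possible.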

Other observations

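Of 8 targets of p53, which responds to DNA damage, none passed either rule, where 2.69% of all tested genes passed the adjusted p. MDM2, which targets p53 for degradation, was counted 1849, 1982 and 1848 times in the control and 2374, 2124 and 1786 times with sgRNA #2. Its log2 fold change was 0.22 (SE 0.0759), with an adjusted p of 0.186 by edgeR that was 1.83e-05 with the replicate block. BTG2, a gene that restrains cell division, was counted 305, 443 and 392 times in the control and 280, 313 and 224 times with sgRNA #2. Its log2 fold change was -0.39 (SE 0.109), with an adjusted p of 0.0715 by edgeR that was 5.55e-06 with the block. The log2 fold changes of the 2 genes had opposite signs.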
